A study of Mus musculus with 6 samples.

Results

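TGF-β signaling genes were examined in 6 libraries of sorted tumor cells. The set comprised 10 genes, chosen by name, of the 47643 genes in the count tables: the ligands Tgfb1, Tgfb2 and Tgfb3, the receptors Tgfbr1, Tgfbr2 and Tgfbr3, the receptor-regulated Smads Smad2 and Smad3, and the pathway inhibitors Smad7 and Skil. All 10 were detected in every tumor and all 10 passed the filter on low counts, which 10416 genes passed.

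The cells were CD45-EPCAM+ cells, that is, cells with the epithelial surface protein EPCAM and without the pan-leukocyte protein CD45, sorted by flow cytometry from breast tumors of MMTV-PyMT mice on the FVB/N background (FVB/N-Tg(MMTV-PyVT)634Mul/J). The study's methods add that cells with the endothelial protein CD31 or the fibroblast protein PDGFRα were gated out. In this model the mouse mammary tumor virus promoter directs the polyoma virus middle T antigen mainly to mammary epithelium, so that the tumors arise from a viral oncogene and many may form in 1 animal. All 6 tumors had received B20-4.1.1, an antibody that blocks VEGF-A, at 5 mg/kg by intraperitoneal injection 2 times a week for 6 weeks, beginning at 7 weeks of age. Untreated tumors and the leukocyte fraction were not analysed here, and the hypoxia class of each tumor is not in the labels, so the 6 libraries form 1 group, are called tumors 1 to 6, and support no statement on the effect of treatment. Each library has its own identifier, but no label says that each came from a different mouse, and p-values measure only the spread between these libraries.

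TGF-β ligands are secreted in a latent form and, once released, bind the type II receptor (Tgfbr2), which recruits and activates the type I receptor kinase (Tgfbr1). Betaglycan (Tgfbr3) is a co-receptor that presents ligand, TGF-β2 above all. The activated kinase phosphorylates SMAD2 and SMAD3, which enter the nucleus with SMAD4 and regulate transcription. Smad7 and Skil are themselves induced by the pathway and restrain it, SMAD7 at the receptor and SKIL (SnoN) at SMAD-bound genes. In mammary epithelium the pathway is known for growth arrest and, in advanced tumors, for a mesenchymal shift and invasion.

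Libraries held 2509482 to 5893246 counts on genes, so that 3 counts, the limit that a count of 0 allows, corresponded to 0.509 to 1.20 CPM (counts scaled to a fixed library sum). Luminal epithelial markers were abundant, with a sum over 7 genes of 3957 to 4874 CPM and Epcam at 611 to 972 CPM. Basal markers summed to 131 to 502 CPM, most of it Krt14, whereas the myoepithelial genes Acta2, Myh11 and Cnn1 stayed at or below 1.21 CPM. The 13 immune markers summed to 104 to 297 CPM, of which S100a8 held 73.8 to 230 CPM. Ptprc (CD45) reached at most 3.39 CPM and Cd8a was at 0 in every tumor. Without S100a8 the immune sum was 223 CPM in tumor 3, against 15.7 to 50.1 CPM in the other tumors. In tumor 3, Lyz2 was at 148 CPM, Cd68 at 29.1 CPM, C1qa at 17.7 CPM and Csf1r at 15.5 CPM. The 6 fibroblast markers summed to 15.1 to 25.9 CPM, with Col1a1 at 4.47 to 11.6 CPM and Lum at or below 0.195 CPM. The 5 endothelial markers summed to 1.59 to 4.12 CPM, with Pecam1 at 1.2 to 2.04 CPM and Emcn at 0. The erythroid sum, mostly hemoglobin, reached 864 CPM in tumor 3 against 5.66 to 69.4 CPM elsewhere. Tumor 1 stood apart: the median correlation of its library with the others was 0.788, against 0.905 to 0.939 for the remaining 5, and values without it are given beside the results that it moved most.

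Of the ligands, Tgfb2 and Tgfb3 were abundant and Tgfb1 was scarce. Tgfb2, on chromosome 1 (186622792 to 186705989, minus strand, GRCm38), measured 308, 232, 227, 300, 159 and 224 CPM in tumors 1 to 6, a mean of 242 ± 55.1 CPM (SD, n = 6). Tgfb3, on chromosome 12 (86056745 to 86079041, minus strand), measured 214, 90.9, 143, 134, 115 and 160 CPM, a mean of 143 ± 42.5 CPM. Tgfb1, on chromosome 7 (25687002 to 25705077, plus strand), measured 22.4, 4.78, 2.67, 5.32, 4.59 and 6.64 CPM, from 11 counts in tumor 3 to 132 counts in tumor 1. Thus Tgfb2 and Tgfb3 were high in every tumor, and Tgfb1 was far below both in every tumor. Tgfb1 was highest in tumor 1, where it was 4.67 times the mean of the other 5. Its mean was 7.73 ± 7.30 CPM over the 6 tumors and 4.80 ± 1.44 CPM without tumor 1. In RNA of a sorted population, fewer cells with a transcript and less of it per cell cannot be told apart, for this gene or the others.

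The gap between Tgfb1 and the other ligands held in 6 of 6 tumors. On the log2(CPM + 1) scale Tgfb2 exceeded Tgfb1 by 5.05 ± 0.78 (SD over tumors) and Tgfb3 exceeded Tgfb1 by 4.28 ± 0.68. Each had an adjusted p of 0.0417 over 8 within-role pairs (exact two-sided sign-flip permutation test over tumors), the unadjusted p of 0.03125 being the smallest that 6 tumors allow. Libraries of this type read transcripts near their 3′ end, so CPM has no length term, but the same differences were also taken per exon length, as TPM (length-normalized transcript levels scaled to a fixed library sum). Per length they were 4.65 and 4.65, again in 6 of 6 tumors. Tgfb2 exceeded Tgfb3 in CPM in 6 of 6 tumors (log2 difference of Tgfb3 minus Tgfb2 of -0.77 ± 0.38, adjusted p = 0.0417 by the same exact test). Per length it did not (-0.00 ± 0.38, adjusted p = 1.0, exact test), since the exons of Tgfb2 span 5791 bases and those of Tgfb3 3383 bases. Division by length brings in a term that these 3′ counts lack. The order of Tgfb2 and Tgfb3 thus held in CPM and not per length. Of the summed ligand CPM, Tgfb2 made up 56.6 to 70.8%, Tgfb3 27.7 to 41.1% and Tgfb1 0.716 to 4.11%. Of the summed ligand TPM, Tgfb2 made up 44.0 to 59.1%, Tgfb3 39.5 to 54.4% and Tgfb1 0.646 to 3.67%, and Tgfb3 exceeded Tgfb2 in 4 of 6 tumors.

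The start regions of the ligands at both ends of this order are shown because these genes differ most in level within a role. They are the 250 bases before the RefSeq transcription start (assembly GRCm38.p6), 5′ to 3′ on the strand of the gene, at chr7:25686752-25687001 for Tgfb1 and chr1:186705990-186706239 for Tgfb2. Capitals mark matches on either strand to a set of short motifs. The GC box was searched as GGGCGG, which reads CCGCCC when the opposite strand carries it. A repeat that SMAD proteins bind was searched as CAGACA, and the core promoter box of the same name as TATAAA. The E box was searched as CACGTG, within which lies ACGTG, the core of the hypoxia response element, so that both overlap.
Tgfb1: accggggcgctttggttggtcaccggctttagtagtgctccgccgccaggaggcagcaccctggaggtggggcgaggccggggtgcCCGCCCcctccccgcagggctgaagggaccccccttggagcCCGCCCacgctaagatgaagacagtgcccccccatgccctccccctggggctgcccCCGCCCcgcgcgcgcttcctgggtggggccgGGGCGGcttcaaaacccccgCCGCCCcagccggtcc
Tgfb2: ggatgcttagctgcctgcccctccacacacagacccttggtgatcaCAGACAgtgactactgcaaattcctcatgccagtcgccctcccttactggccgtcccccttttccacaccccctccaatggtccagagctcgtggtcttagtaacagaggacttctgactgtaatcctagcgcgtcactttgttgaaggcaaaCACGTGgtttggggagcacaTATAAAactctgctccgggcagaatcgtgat
The Tgfb1 region held 5 GC boxes, the nearest 16 bases and the farthest 164 bases before the start, and 75.2% of its bases were G or C, above 96.1% of all regions of this length. The Tgfb2 region held TATAAA 31 bases, an E box 51 bases and a CAGACA 204 bases before the start, and 53.6% G or C, near the median of 52.4%. Of 32851 start regions of the same length, 32.7% held a GC box, 12.4% TATAAA, 17.1% CAGACA, 6.02% CACGTG and 16.6% ACGTG. GTCTAGAC and TGACGTCA, the palindromic SMAD and cyclic AMP elements, were searched too, and lay in neither region, against 0.167% and 1.55% of all regions. These letters are a description of the windows and were not related to the levels. Of the 10 genes, Tgfb1, Tgfb2, Tgfbr1, Tgfbr2 and Smad3 matched an entry.

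**Figure D1:**
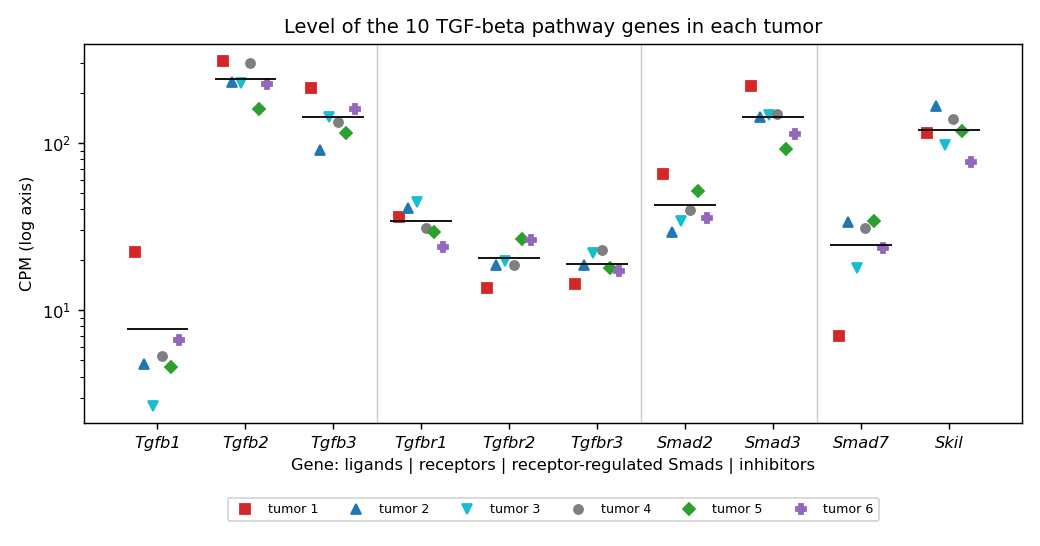
CPM (log axis) of each of the 10 genes in tumors 1 to 6 (symbols), with horizontal bars at the mean of the 6 and vertical lines between ligands, receptors, receptor-regulated Smads and inhibitors. Tgfb2 lies at 159 to 308 CPM, whereas Tgfb1 lies at 2.67 to 6.64 CPM in 5 tumors and at 22.4 CPM in tumor 1, the tumor in which Smad7 is lowest (6.96 CPM).

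The receptors were lower than Tgfb2 and Tgfb3 and closer to each other. Tgfbr1, on chromosome 4 (47353222 to 47414931, plus strand), measured 36.3, 40.6, 44.1, 31.1, 29.2 and 24.0 CPM in tumors 1 to 6. Tgfbr2, on chromosome 9 (116084293 to 116175360, minus strand), measured 13.6, 18.7, 19.6, 18.5, 26.8 and 26.2 CPM. Tgfbr3, on chromosome 5 (107106570 to 107289629, minus strand), measured 14.4, 18.7, 21.8, 23.0, 17.8 and 17.2 CPM. Tgfbr1 was highest in tumors 2 and 3, Tgfbr2 in tumors 5 and 6, and both Tgfbr2 and Tgfbr3 were lowest in tumor 1.

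The type I receptor exceeded the co-receptor in every tumor, with Tgfbr3 minus Tgfbr1 at -0.82 ± 0.35 on the log2(CPM + 1) scale (adjusted p = 0.0417, exact sign-flip test) and -0.77 per length. Tgfbr1 also exceeded Tgfbr2 in 5 of 6 tumors, the exception being tumor 6, with Tgfbr2 minus Tgfbr1 at -0.71 ± 0.59 (adjusted p = 0.0714, exact test). Per length that difference was -0.96 ± 0.55 and held in 6 of 6 tumors (adjusted p = 0.0417, exact test), so its call depends on the unit. Tgfbr2 and Tgfbr3 differed by less than their spread, at -0.10 ± 0.38 for Tgfbr3 minus Tgfbr2 (adjusted p = 0.5, exact test). The share of Tgfbr1 in the summed CPM of the receptors ran from 35.7% in tumor 6 to 56.5% in tumor 1.

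Among the receptor-regulated Smads, Smad3 was the more abundant. Smad3, on chromosome 9 (63646767 to 63757994, minus strand), measured 218, 143, 147, 149, 92.2 and 113 CPM, a mean of 144 ± 42.9 CPM (SD, n = 6). Smad2, on chromosome 18, measured 65.3, 29.5, 33.9, 39.8, 51.5 and 35.5 CPM, a mean of 42.6 ± 13.4 CPM. The values of Smad3 and Smad2 did not overlap, and their log2(CPM + 1) difference was 1.73 ± 0.49, in 6 of 6 tumors (adjusted p = 0.0417, exact sign-flip test), and 2.32 ± 0.48 per length. Smad3 made up 76.1 to 82.9% of their summed CPM in 5 tumors and 64.2% in tumor 5, where Smad3 was lowest and Smad2 second highest.

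Of the inhibitors, Skil was the higher. Skil, on chromosome 3 (31095058 to 31122577, plus strand), measured 115, 167, 97.0, 138, 119 and 76.7 CPM, a mean of 119 ± 31.6 CPM (SD, n = 6). Smad7, on chromosome 18, measured 6.96, 33.5, 17.9, 30.8, 33.9 and 23.6 CPM, a mean of 24.5 ± 10.6 CPM. Smad7 was lowest in tumor 1, at 0.249 times the mean of the other 5, with 41 counts there. Skil exceeded Smad7 by 2.35 ± 0.79 on the log2(CPM + 1) scale in 6 of 6 tumors (adjusted p = 0.0417, exact sign-flip test) and by 1.23 ± 0.76 per length. In all, 6 of the 8 pairs passed the test in CPM and 6 of 8 in TPM, Tgfb2 against Tgfb3 passing only in CPM and Tgfbr1 against Tgfbr2 only in TPM.

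Across roles the genes were ordered per length and in CPM. Per length, mean TPM was highest for Tgfb3 (108), Tgfb2 (107), Smad3 (66.4) and Skil (31.5). Smad7 (13.9), Tgfbr1 (13.4), Smad2 (12.4), Tgfbr3 (7.35), Tgfbr2 (6.39) and Tgfb1 (3.92) followed. Neighbors in this order that differed by less than the SD of their log2 difference were Tgfb3 and Tgfb2, Smad7 and Tgfbr1, Tgfbr1 and Smad2, Tgfbr3 and Tgfbr2, and Tgfbr2 and Tgfb1. Per length, Tgfb2 exceeded Smad3, Smad3 exceeded Skil, Skil exceeded Smad7 and Smad2 exceeded Tgfbr3 in 6 of 6 tumors. In CPM, the order of means was Tgfb2 (242), Smad3 (144), Tgfb3 (143), Skil (119) and Smad2 (42.6). Below them came Tgfbr1 (34.2), Smad7 (24.5), Tgfbr2 (20.6), Tgfbr3 (18.8) and Tgfb1 (7.73). Most neighbors in the CPM order also differed by less than the SD of their log2 difference. These were Smad3 and Tgfb3, Tgfb3 and Skil, Smad2 and Tgfbr1, Tgfbr1 and Smad7, Smad7 and Tgfbr2, and Tgfbr2 and Tgfbr3. In CPM, Tgfb2 exceeded Smad3 and Skil exceeded Smad2 in 6 of 6 tumors, and Tgfbr3 exceeded Tgfb1 in 5 of 6. The exons of Tgfb1 span 5042 bases and its longest coding transcript 2175 bases, so its place per length rests on the length taken. Reads of another gene at the 3′ ends of these genes are a limit only where sequence is shared, and none of the 251 windows of 50 bases in the last 300 bases of each main transcript occurred in a transcript of another gene. Exons of Tgfb2, Tgfb3 and Tgfbr3 overlap those of other annotated genes, at 12602 bases or more from the 3′ end, and where counted these genes had at most 0.797 CPM.

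The levels were next compared between tumors. Set against counting error alone (edgeR likelihood-ratio test with a dispersion of 0, Benjamini-Hochberg over the 10416 genes), 10 of the 10 genes differed between libraries, with adjusted p from 1.89e-59 for Tgfb2 to 0.0107 for Tgfbr3. Of all genes tested, 90.6% did so, and the count is thus near the background. With an allowance of a 10% technical coefficient of variation, 8 of 10 passed, Tgfbr1 and Tgfbr3 having adjusted p of 0.0666 and 0.203 (edgeR).

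Tgfb1 and Smad7 varied most. Their biological coefficients of variation (BCV, the spread between tumors beyond counting error, by edgeR) were 0.557 and 0.451, above those of 98.0% and 91.1% of genes tested, and their dispersions were 2.39 and 1.65 times the trend at their level. The other 8 genes had BCVs of 0.278 (Tgfbr1) to 0.320 (Tgfbr2), all below the trend, with a median of 0.323 over all genes. A dispersion above the trend was seen in 2 of the 10 genes and in 32.8% of genes tested. Without tumor 1 the BCV of Tgfb1 fell to 0.300 and that of Smad7 to 0.261, both then below the trend, and Skil (0.266) was the 1 gene above it, so the spread of Tgfb1 and Smad7 rested on tumor 1.

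**Figure D2:**
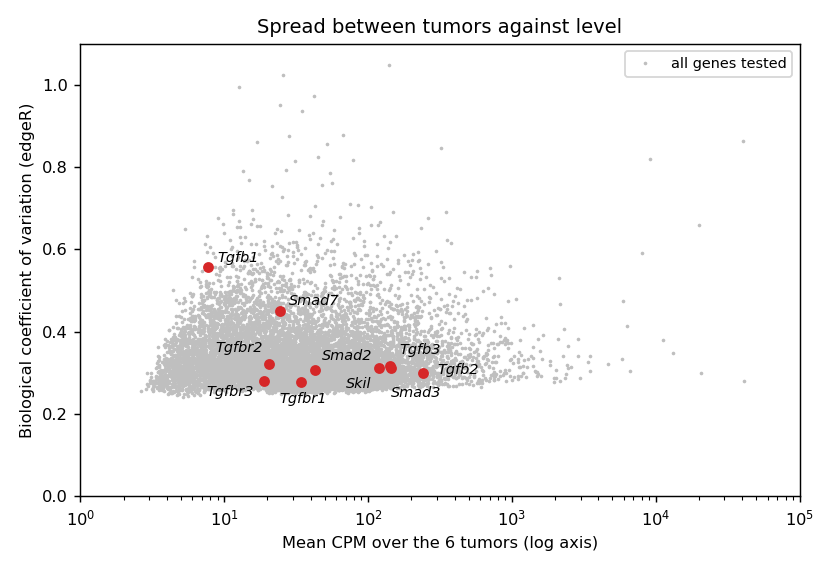
BCV by edgeR against mean CPM (log axis) for the genes tested (grey) and the 10 TGF-β genes (red, named); 1 gene tested lies beyond the axes. Tgfb1 (0.557) and Smad7 (0.451) lie above the other 8, which lie between 0.278 and 0.320.

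Tumor 1 held the extreme value of 7 of the 10 genes after TMM scaling. Tgfb1, Tgfb3, Smad2 and Smad3 were highest there, which was also true of 32.7% of genes tested, and Tgfbr2, Tgfbr3 and Smad7 were lowest there, as were 30.6%. Relative to the mean of the 6 on the log2(TMM-scaled CPM + 1) scale, tumor 1 lay at 1.62 for Tgfb1 and at -1.61 for Smad7, and between -0.62 and 0.56 for the other 8. None of the 10 met Dixon's criterion for a single tumor apart on the log2 scale (a gap to the nearest tumor over the 95% critical fraction of the range), the closest being Smad7 at 0.561 and Tgfb1 at 0.534, whereas 12.2% of genes tested met it. On linear CPM, Tgfb1 met it, at 0.799. Tumor 1 had the lowest fibroblast sum (15.1 CPM) and an immune sum of 213 CPM, within the range of the others, and the part of other cells in its values was not tested beyond the correlations below.

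**Figure D3:**
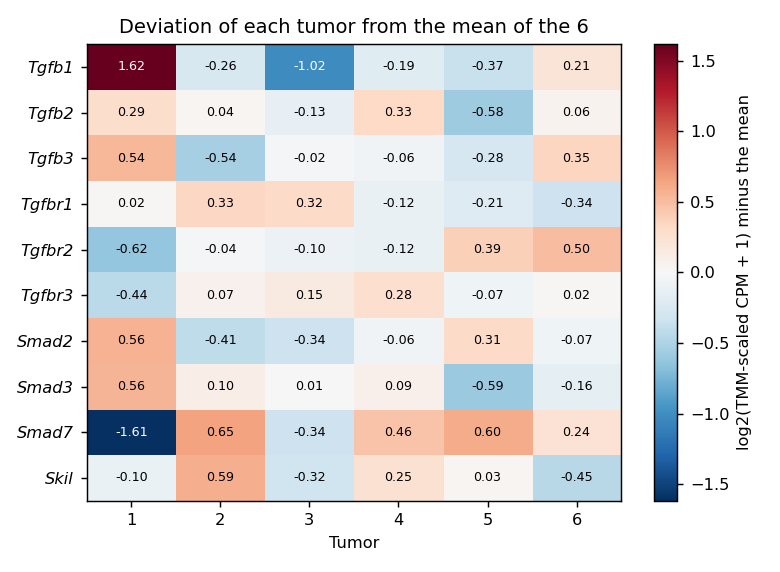
Deviation of each tumor (columns) from the mean of the 6 for each gene (rows), as a difference on the log2(TMM-scaled CPM + 1) scale, red above and blue below the mean. The extremes are in tumor 1, Tgfb1 at 1.62 and Smad7 at -1.61.

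Identifiers of the tumors carry the prefix QAF (4 tumors) or QSD (2 tumors, tumors 2 and 3), the meaning of which no label gives. Of the 10 genes, 2 did not overlap between the prefixes, 1 in each direction. Tgfbr1 was at 40.6 and 44.1 CPM in the QSD tumors and 24.0 to 36.3 CPM in the QAF tumors, and Smad2 at 29.5 and 33.9 CPM against 35.5 to 65.3 CPM. Of genes tested, 8.77% were higher in both QSD tumors than in all QAF tumors and 6.86% were lower, so 1 of 10 in each direction is near the background.

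Whether the genes followed tumor hypoxia, which the study concerns, was addressed with a score, the mean TPM of Vegfa, Slc2a1 and Car9, whose products are an angiogenic factor, a glucose transporter and a carbonic anhydrase induced by hypoxia. The score was 48.5, 37.2, 51.4, 76.6, 94.4 and 47.3 in tumors 1 to 6. None of the 10 genes had a slope on the log2 score that passed the test (adjusted p from 0.943 to 0.975, edgeR quasi-likelihood test over 10416 genes), and the test called 0 of all genes (0%), with 458 at an unadjusted p under 0.05, whereas DESeq2 called 18 genes and none of the 10. Slopes, as log2 change per log2 unit of the score, ran from -0.82 ± 0.81 (SE) for Tgfb1 and -0.44 ± 0.37 for Smad3 to 0.28 ± 0.37 for Smad2 and 0.32 ± 0.53 for Smad7, and the median over the 10 was -0.13, against -0.04 over all genes. Without tumor 1 the slope of Tgfb1 was -0.12 and that of Smad2 0.46, and without tumor 5, the tumor with the highest score, those of Smad3 and Smad7 were -0.03 and 0.01. With standard errors of 0.33 to 0.81, slopes of this size were not detectable with 6 tumors. Pearson's r with the log2 score lay between -0.59 (Smad3) and 0.42 (Smad2), and Spearman's rho between -0.49 and 0.54, with adjusted p of 0.915 for every r and 1.0 for every rho (exact permutation over 720 orders of the tumors, 10 relations). Without tumors 4 and 5, which lie farthest from the median score, r was 0.05 for Smad3 and 0.40 for Smad2, and without tumor 1 alone it was -0.64 for Smad3 and 0.87 for Smad2. Tumor 2 had the fewest counts, the largest part of reads without a gene and the lowest score. Without it, r was -0.83 for Tgfb3, 0.76 for Skil and 0.65 for Smad7, against -0.11, -0.05 and 0.28 with it. For the other genes, r without tumor 2 lay between -0.63 and 0.31.

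**Figure D4:**
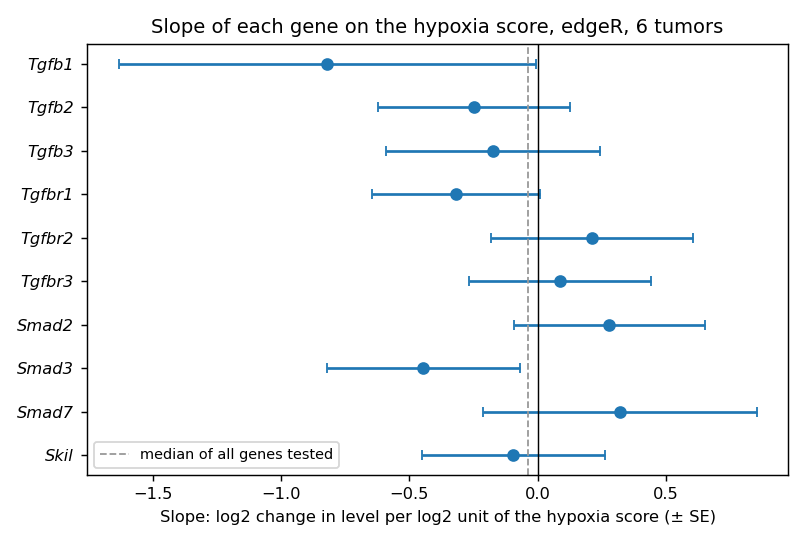
Slope of each gene on the log2 hypoxia score with its standard error (edgeR, 6 tumors), in log2 change per log2 unit of the score; the dashed line marks the median slope of all genes tested (-0.04). None passed the test, and the standard errors range from 0.33 to 0.81.

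Since Smad7 and Skil are induced by TGF-β signaling, their levels were set against those of each ligand and receptor, in 12 relations across the 6 tumors. None passed after adjustment. The closest was Smad7 with Tgfb3, which ran in opposite directions: Spearman's rho was -0.94 (exact permutation p = 0.0167, adjusted p = 0.2) and Pearson's r was -0.77 (exact permutation p = 0.0583, adjusted p = 0.353). With 1 tumor left out in turn, r lay between -0.93 and -0.52. Without both tumors 1 and 2, the farthest from the median of Tgfb3, r was -0.31. The tumors that remain are too few to decide on which of them the relation rested. Skil with Tgfb3 gave an r of -0.72 and a rho of -0.77 (exact permutation p = 0.0944 and 0.103, adjusted p = 0.353 and 0.617), and r was -0.69 without tumors 1 and 2. Smad7 with Tgfb1 gave an r of -0.70 and a rho of -0.37 (exact permutation p = 0.147 and 0.497, adjusted p = 0.353 and 0.878), and r turned to 0.62 without tumor 1. Smad7 ran in the same direction as Tgfbr2 (r of 0.75 and rho of 0.49, exact permutation p = 0.104 and 0.356, adjusted p = 0.353 and 0.878) and Tgfbr3 (r of 0.74 and rho of 0.26, exact permutation p = 0.124 and 0.658, adjusted p = 0.353 and 0.878). Without tumor 1 these r were 0.21 and -0.28, and without the pair of tumors farthest from the median of each receptor they were 0.42 (tumors 1 and 6) and -0.73 (tumors 1 and 4). With 4 and 2 tumors, the prefixes held fewer than the 6 used for each test, and no relation was tested within them.

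**Figure D5:**
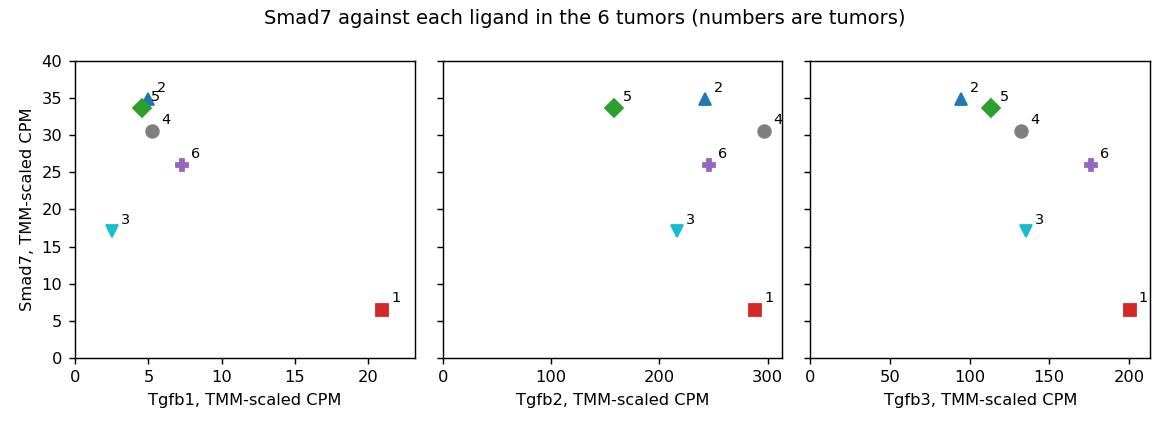
TMM-scaled CPM of Smad7 (vertical axis) against Tgfb1, Tgfb2 and Tgfb3 (horizontal axes), 1 point for each tumor, numbered 1 to 6. Tumor 1 has the lowest Smad7 (6.51) and the highest Tgfb1 (20.9) and Tgfb3 (201), and in the panel of Tgfb1 the other 5 lie at 2.54 to 7.29.

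Relations of the 10 genes to summed immune, fibroblast and basal epithelial markers were computed to see how other cells moved with them, 30 in all, and none passed after adjustment. The strongest was Tgfb1 with the fibroblast markers, with an r of -0.87 and a rho of -0.89 (exact permutation p = 0.0194 and 0.0333, adjusted p = 0.583 and 0.617). This r was -0.86 without tumors 1 and 4 and -0.58 without tumor 1 alone. Tgfb1 was highest in tumor 1, where the sum of these markers was lowest. The markers did not all follow the sum. Col1a1, the most abundant, was at 10.9 CPM in tumor 1, near the top of its range of 4.47 to 11.6 CPM. Col1a2, Col3a1 and Dcn had 1, 3 and 11 counts there. Smad2 with the basal markers gave an r of 0.76 and a rho of 0.83 (exact permutation p = 0.0833 and 0.0583, adjusted p = 0.688 and 0.617), and r was 0.79 without tumors 3 and 5. The relations to the immune sum depended on S100a8. Without S100a8, r turned from 0.37 to -0.47 for Tgfb2, from 0.42 to -0.19 for Smad3 and from -0.57 to 0.08 for Tgfbr2. It also changed sign for Tgfbr3 and Smad2, kept its sign for the other members, and again none passed.

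Other genes of the pathway were taken from 6 lists. In every list all genes tested differed between libraries beyond counting error, as 90.6% of all genes did, so that these counts are near the background, and 0 had a called slope on the score, as for all genes. Of 13 genes of latency and activation, 11 were tested. Furin, the protease that cleaves the ligand precursors, was at 573 CPM in tumor 1 and at 158 to 277 CPM in the others. Ltbp2 and Ltbp3, of the latent TGF-β binding protein family, were at 73.6 to 264 CPM and 202 to 331 CPM, and both were highest in tumor 1. Of the 11 tested, 5 were highest and 3 were lowest in tumor 1, against 32.7% and 30.6% of all genes tested. Itgb6 and Itgb8, whose integrins release active TGF-β, were at 1.02 to 7.79 CPM (5 to 39 counts) and 13.9 to 43.3 CPM (50 to 217 counts). Both were lowest in tumor 1. Thbs1 and Mmp14 of this list were also lowest there, at 24.8 CPM and 17.3 CPM.

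Of 9 other receptors and co-receptors, 6 were tested. The most abundant were the BMP receptors Bmpr2 (76.1 to 140 CPM) and Bmpr1a (71.9 to 110 CPM) and the activin receptor Acvr1b (26.2 to 36.7 CPM). Eng, a co-receptor typical of endothelium, had 0 to 9 counts. Of 5 other Smads, 4 were tested. Smad4, the shared partner of SMAD2 and SMAD3, was at 76.9 to 109 CPM, and Smad5 and Smad1, which act downstream of BMP receptors, were at 111 to 189 CPM and 23.6 to 44.9 CPM.

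Of 11 regulators of Smads, 10 were tested. Pmepa1, a TGF-β target that limits SMAD2 and SMAD3 activation, was at 1007, 929, 934, 741, 1054 and 1184 CPM in tumors 1 to 6, the highest mean of this list (975 ± 148 CPM, SD, n = 6). It was therefore abundant in every tumor, with a BCV of 0.292, and was not low in tumor 1, where Smad7 was. Nedd4l and Smurf2, ubiquitin ligases for SMADs and receptors, were at 169 to 461 CPM and 104 to 166 CPM.

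Of 17 direct and usual targets, 12 were tested, with a median BCV of 0.412 against 0.323 over all genes. Of the 12, 7 were lowest in tumor 1 and 0 were highest there, against 30.6% and 32.7% of all genes tested, a difference that was not tested. The list was not split by the direction in which the pathway moves each gene, so a low value does not stand for low signaling. Id2 was at 360 CPM in tumor 1 against 604 to 1151 CPM in the other 5, Junb at 478 and 561 to 801 CPM, and Bhlhe40 at 49.7 and 114 to 446 CPM. Fn1 (fibronectin) and Vim (vimentin), usual markers of a mesenchymal shift, had dispersions 8.96 and 6.19 times the trend. Fn1 was at 666 CPM in tumor 5 against 6.38 to 61.1 CPM elsewhere, and Vim at 223 CPM and 10.0 to 24.9 CPM. Tumor 5 also had the highest basal sum (502 CPM), whereas its fibroblast sum of 22.0 CPM was within the range of the others. Snai1, Snai2, Zeb1 and Zeb2, transcription factors of the same shift, had at most 32 counts in any tumor. Of the 10 members, Tgfb2 (159 CPM) and Smad3 (92.2 CPM) were at their lowest in tumor 5. Tgfbr2 (26.8 CPM) and Smad7 (33.9 CPM) were at their highest there in CPM. After TMM scaling, Tgfbr2 was highest in tumor 6 and Smad7 in tumor 2.

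Of 12 activin and BMP ligands and inhibitors, 3 were tested. Inhbb, a subunit of activins and inhibins, was at 107 to 290 CPM and was highest in tumor 1. Bmp4 was at 23.0 and 26.6 CPM in tumors 6 and 5 and at 5.58 to 8.30 CPM in the others, and Bmp2, which did not pass the filter, was at 1.59 to 28.4 CPM.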

How the data were processed

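The deposited files hold raw read counts per gene, 1 file for each tumor. By the labels and the study's methods, the authors prepared 3′ libraries (QuantSeq FWD) and processed the reads on the Bluebee platform with bbduk for trimming, STAR 2.5 for alignment to GRCm38 (mm10) and HTSeq for counting. A second-strand module with 6-base molecular identifiers was used. Collapsing by identifier, the strand setting and the annotation release are not given in the sources used here, and the counting floors therefore leave amplification out. Summary lines without a gene (5 a file) took 16.1 to 41.4% of reads and were dropped.

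CPM was computed over all genes from the deposited counts, TPM with union exon lengths of GENCODE M21, and TMM factors were 0.911 to 1.07. Genes were kept by filterByExpr (minimum count 10, minimum total 15, group size 6). edgeR 4.0.16 (R 4.3.3) gave the likelihood-ratio test between libraries, the dispersions and the quasi-likelihood slope on the centred log2 score, with DESeq2 1.42.0 as alternative, at an adjusted p of 0.05 (Benjamini-Hochberg). Within-role pairs were tested by exact two-sided sign flips of log2(CPM + 1) differences (smallest p 0.03125) and correlations by exact two-sided permutation over 720 orders (smallest p 0.00139), on log2(TMM-scaled CPM + 1), adjusted within families of 10, 12 and 30 relations, 52 in all. The scripts were tested on simulated data. Samples form 1 group by their labels, numbered as in the titles.

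Named genes were the 10 members and, of each pathway list, the 3 with the highest mean CPM and those with a called slope or a dispersion over 4 times the trend. Itgb6, Itgb8, Thbs1, Mmp14, Eng, Snai1, Snai2, Zeb1 and Zeb2 were named in addition, after their values were seen. The members and lists were chosen with earlier results of these data known. Alternatives were other scalings, filters, pseudocounts, scores, lengths and tools, and each tumor left out in turn. RefSeq start regions were matched by symbol, 5 of 10 members having one.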

Additional observations from a re-analysis of the deposited data

Results flagged for a closer look

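Values were looked at for 1 tumor far from the other 5, by the gap to the nearest tumor as a fraction of the range of the 6, against Dixon's 95% critical value for 6 values. Of 46 values looked at, 7 exceeded it, where the criterion alone would give about 2.3 by chance among unselected, independent values. Of all genes tested, 12.2% exceeded it. In tumor 1, these were Smad1 (low, 0.645), the correlation of the library with the others (low, 0.775) and the share of Tgfb1 in the summed ligand CPM (high, 0.711, at 4.11% against 0.716 to 1.70% in the other tumors). In tumor 4, the share of Tgfbr3 in the summed receptor CPM was high (0.667, at 31.7% against 22.4 to 25.5%). In tumor 5, Vim was high (0.704), and the share of Smad2 in the summed CPM of Smad2 and Smad3 was high (0.634, at 35.8% against 17.1 to 23.9%), with the share of Smad3, its complement, low by the same fraction (0.634). Vim was among the values looked at because of its high dispersion, and shares within a role are not independent of each other. The 7 and the 2.3 are therefore not a test, and the causes were not tested.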

How the results depend on the processing

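No paired analysis was possible because all 6 tumors belong to 1 group. With 5 tumors the exact sign-flip test cannot go below 0.0625, so tumors left out in turn give values only for the pairs, and 6 tumors limit every relation. The length over the longest coding transcript and the immune list without S100a8 were chosen after seeing the data.

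The number of genes with a called slope on the score was 0 with edgeR, 18 with DESeq2, 10 without the filter and 0 to 2 with a tumor left out (2 without tumor 1), and none of the 10 members was among them. The number of members with a dispersion above the trend was 2, and 1 to 2 with a tumor left out (1 without tumor 1). The number of members with 1 tumor apart was 0 on the log2 scale and 1 on linear CPM (Tgfb1). Members beyond counting error numbered 10, 8 with a dispersion of 0.01, and 9 to 10 with a tumor left out, 9 without tumor 1 or tumor 4 (Tgfbr3 lost in each). Uncalled slopes changed sign for Skil with a geometric-mean score (0.0023) and, with a tumor left out, for Tgfb2 (range -0.55 to 0.28), Tgfb3 (-0.60 to 0.18), Tgfbr2 (-0.16 to 0.40), Tgfbr3 (-0.058 to 0.31) and Skil (-0.22 to 0.51). Over the longest coding transcript, Tgfb3 minus Tgfb2 was -0.18 (adjusted p = 0.4375, exact test) and Tgfbr2 minus Tgfbr1 was -1.23 (adjusted p = 0.0417, exact test). Tgfb2 minus Tgfb1 was then 4.07 and Tgfb3 minus Tgfb1 was 3.89, and 6 of 8 pairs passed. A pseudocount of 0.1 also left 6 of 8. No correlation passed in any setting tried with 6 tumors.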
